A study of Mus musculus with 2 samples.

Results

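In 72 mouse genes the 2 RNA-seq libraries of 1 culture condition assigned most of the gene's output to different transcripts. A transcript was called dominant when it held at least 70% of its gene's TPM (a relative abundance that is scaled to transcript length and to the size of the library). The genes were those with at least 20 TPM in both libraries, at least 2 annotated transcripts, 1 dominant transcript in replicate 1 and another in replicate 2. Of 43346 mouse genes in the tables, 3739 reached 20 TPM in both libraries and 2880 of these had 2 or more transcripts. Among these 2880 eligible genes, 1293 had a dominant transcript in both libraries. It was the same transcript in 1221 genes and a different one in 72 genes, which is 2.50% of the eligible genes and 5.57% of those with a dominant transcript in both. The genes were thus selected on the transcript percentages and gene TPM of both libraries, so every difference between the libraries that follows is a description and carries no test.

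The RNA came from G1E-ER4 cells, an immortalised line of mouse erythroid precursors from a male. Gata1, the gene of the master transcription factor of red cell development, is disrupted in the parental line and restored in G1E-ER4 as an estrogen receptor fusion whose activity depends on estradiol. Both libraries were polyA RNA-seq, sequenced from paired ends, of cells kept for 3 h in 10 nM 17beta-estradiol. The labels number them as biological replicates 1 and 2 of 1 group and tie both to 1 cell sample record. Their spread may be technical, and no untreated library was analysed here.

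Most mammalian genes make several RNAs, through different start sites, splice sites and polyadenylation sites. Some of these RNAs encode protein. Others keep an intron, and RNAs with an early stop codon can be degraded by nonsense-mediated decay. During late red cell development, introns kept in mature RNA are a known layer of gene regulation. Short reads that fall in sequence shared by several transcripts cannot be placed on 1 of them directly, and quantification programs divide such reads by a statistical model.

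Replicate 1 held 31126956 expected counts (estimated fragments per transcript, summed over the library) and replicate 2 held 57853617. The libraries also differed in the number of bases taken off each transcript's length to give its effective length, 136.45 bases in replicate 1 and 152.11 bases in replicate 2, and the part of that difference in the results was not tested. All 14 erythroid markers examined reached 1 TPM in both libraries, and their summed level was 6712 TPM in replicate 1 and 22278 TPM in replicate 2. In replicate 2 that sum was mostly globin, with Hbb-bs at 863.09 TPM in replicate 1 against 9483.82 TPM in replicate 2. The other markers went both ways. Klf1 (786.12 TPM in replicate 1 against 350.5 TPM in replicate 2), Zfpm1 (2427.02 against 1438.14 TPM), Tal1, Tfrc and Epor were higher in replicate 1. Gata1 (190.31 TPM in replicate 1 against 798.88 TPM in replicate 2), Gfi1b (186.02 against 370.45 TPM), Alas2, Sptb and Ank1 were higher in replicate 2. The part of these differences in the results was not tested. None of 16 markers of other cell types reached 1 TPM in both libraries, with Lck, a T cell kinase, at 0.25 TPM in replicate 1 against 2.17 TPM in replicate 2. Of these markers 5 were at 0 in both, and the sum of all 16 was 3.65 TPM in replicate 1 and 4.11 TPM in replicate 2. With 1 library on each side, no error can be given for a difference between them.

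The sequence at a point where the paired transcripts part shows a difference between them. The point taken is the first with at least 30 bases of both transcripts before it. The pairs of 6 genes are printed here because they include abundant genes and pairs in which replicate 1's transcript, replicate 2's or neither reads on into an intron. Pairs with no such parting point are not printed. Each line gives 60 bases of a spliced transcript, 5′ to 3′, from the GENCODE M21 transcripts on GRCm38. The lower-case letters are the 30 shared bases before that point, and the capitals are the first 30 bases after it. The transcripts can share bases again further on, as in Rps2.
Rps2-204, dominant in replicate 1: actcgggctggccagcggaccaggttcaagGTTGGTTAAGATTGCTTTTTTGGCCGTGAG
Rps2-206, dominant in replicate 2: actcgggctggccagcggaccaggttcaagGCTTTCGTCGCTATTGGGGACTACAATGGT
Rpl27-202, dominant in replicate 1: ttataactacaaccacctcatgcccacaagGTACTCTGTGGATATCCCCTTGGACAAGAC
Rpl27-204, dominant in replicate 2: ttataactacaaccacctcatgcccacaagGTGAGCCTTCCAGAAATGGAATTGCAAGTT
Ndufb8-203, dominant in replicate 1: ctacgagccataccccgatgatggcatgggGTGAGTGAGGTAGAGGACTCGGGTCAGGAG
Ndufb8-201, dominant in replicate 2: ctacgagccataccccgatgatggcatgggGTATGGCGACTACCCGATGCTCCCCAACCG
Tpm3-203, dominant in replicate 1: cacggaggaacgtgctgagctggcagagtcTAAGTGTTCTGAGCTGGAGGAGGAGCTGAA
Tpm3-212, dominant in replicate 2: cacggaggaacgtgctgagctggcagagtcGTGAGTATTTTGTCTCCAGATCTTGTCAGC
Top2a-201, dominant in replicate 1: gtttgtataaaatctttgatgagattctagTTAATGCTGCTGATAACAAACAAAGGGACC
Top2a-202, dominant in replicate 2: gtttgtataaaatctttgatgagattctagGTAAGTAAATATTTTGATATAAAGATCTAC
Atg13-201, dominant in replicate 1: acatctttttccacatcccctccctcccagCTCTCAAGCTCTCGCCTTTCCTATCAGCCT
Atg13-202, dominant in replicate 2: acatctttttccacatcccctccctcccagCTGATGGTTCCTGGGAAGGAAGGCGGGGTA

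In Rps2 the last shared base before this point is position 24720731 on the plus strand of chromosome 17, in a coding exon of Rps2-206. Rps2-204 reads on into the intron, while Rps2-206 continues at the next exon, at position 24720969. Ndufb8 parts at position 44554931 on the minus strand of chromosome 19, where Ndufb8-203 reads on and Ndufb8-201 splices. Rps2-204 spans the whole intron and goes on into the next exon, while Ndufb8-203 ends inside its intron. In both genes the transcript that reads on was the one dominant in replicate 1.

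The reverse arrangement was seen in Rpl27, Tpm3 and Top2a, where the transcript that splices at this point was dominant in replicate 1. Rpl27 parts at position 101443670 on the plus strand of chromosome 11, Tpm3 at position 90087744 on the plus strand of chromosome 3, and Top2a at position 99022340 on the minus strand of chromosome 11. In Atg13 both transcripts splice after position 91684669 on the minus strand of chromosome 2, Atg13-201 to position 91682136 and Atg13-202 to position 91681695. The exon maps show the pairs of Rps2, Actb, Rpl27, Ndufb8 and Tpm3, and that of Sf3a1, at the scale of the gene.

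**Figure D1:**
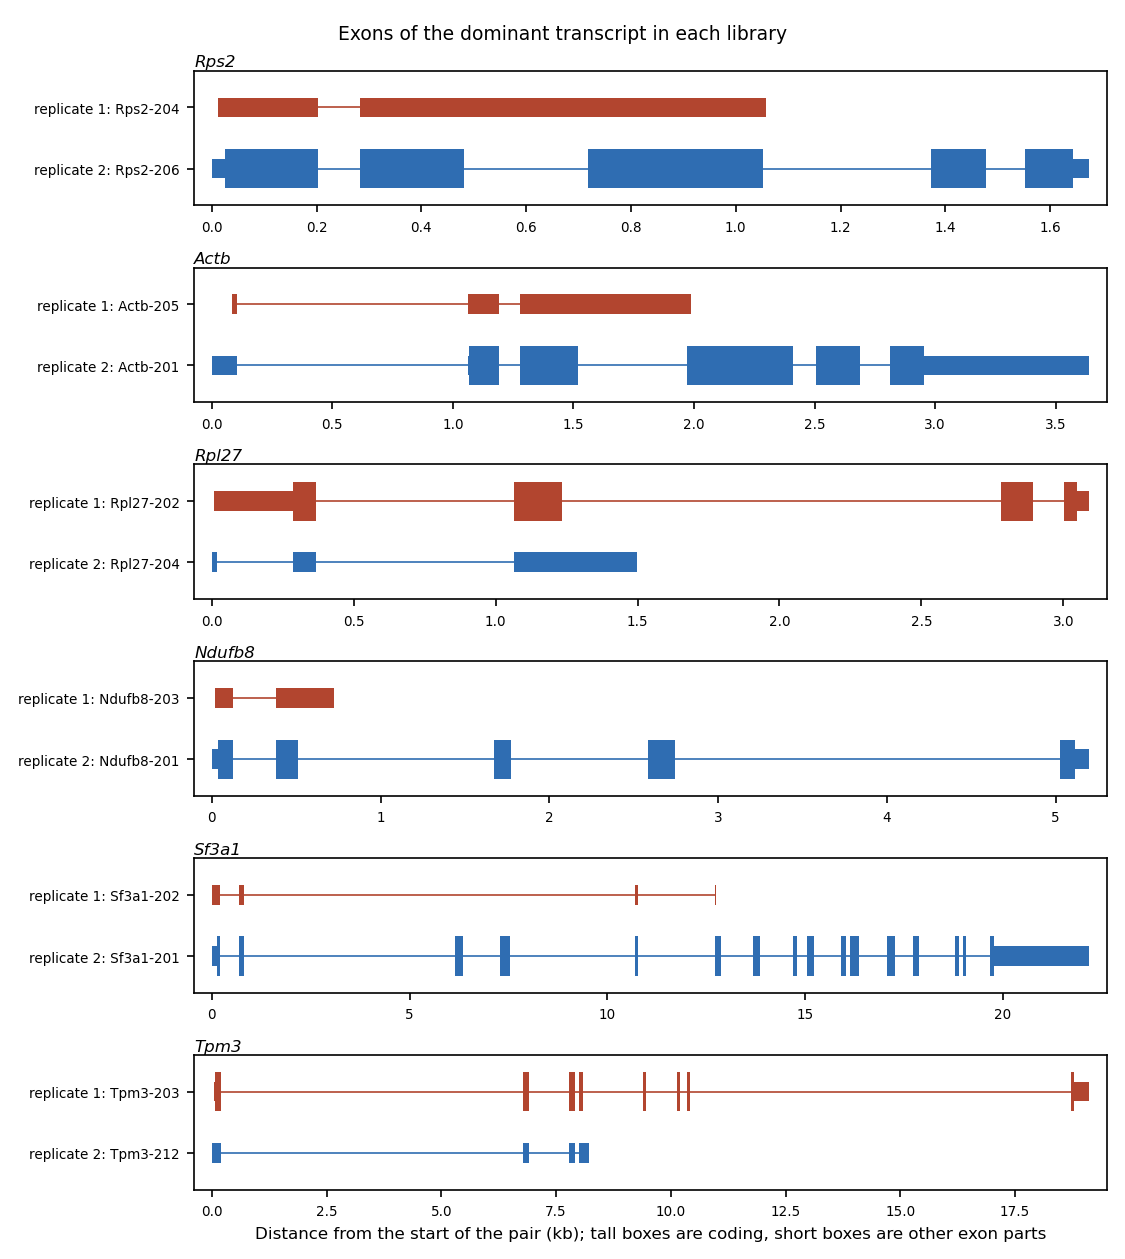
Exons of the transcript dominant in replicate 1 (upper row of each panel) and in replicate 2 (lower row) in 6 genes, against distance in kb from the first base of the pair. Tall boxes are coding sequence, short boxes are other exon parts and lines are introns. The transcript annotated as a retained intron stands in the replicate 1 row in Rps2, Actb and Ndufb8 and in the replicate 2 row in Tpm3, and in each of these genes it ends before its partner.

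Across the 72 genes, the transcript dominant in replicate 1 held a median of 85.7% of its gene's TPM in replicate 1 and 11.8% in replicate 2. The transcript dominant in replicate 2 held a median of 7.74% in replicate 1 and 81.9% in replicate 2. The share left to it in the other library reached at most 29.6% for replicate 1's transcript and 27.8% for replicate 2's. Replicate 1's transcript was listed at 0% in replicate 2 in 10 genes, and replicate 2's transcript was listed at 0% in replicate 1 in 18 genes. In 3 genes each dominant transcript held under 1% in the other library. The plot of isoform percentages gives these shares for every gene, and the 2 libraries do not overlap in it because the rule keeps them apart.

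**Figure D2:**
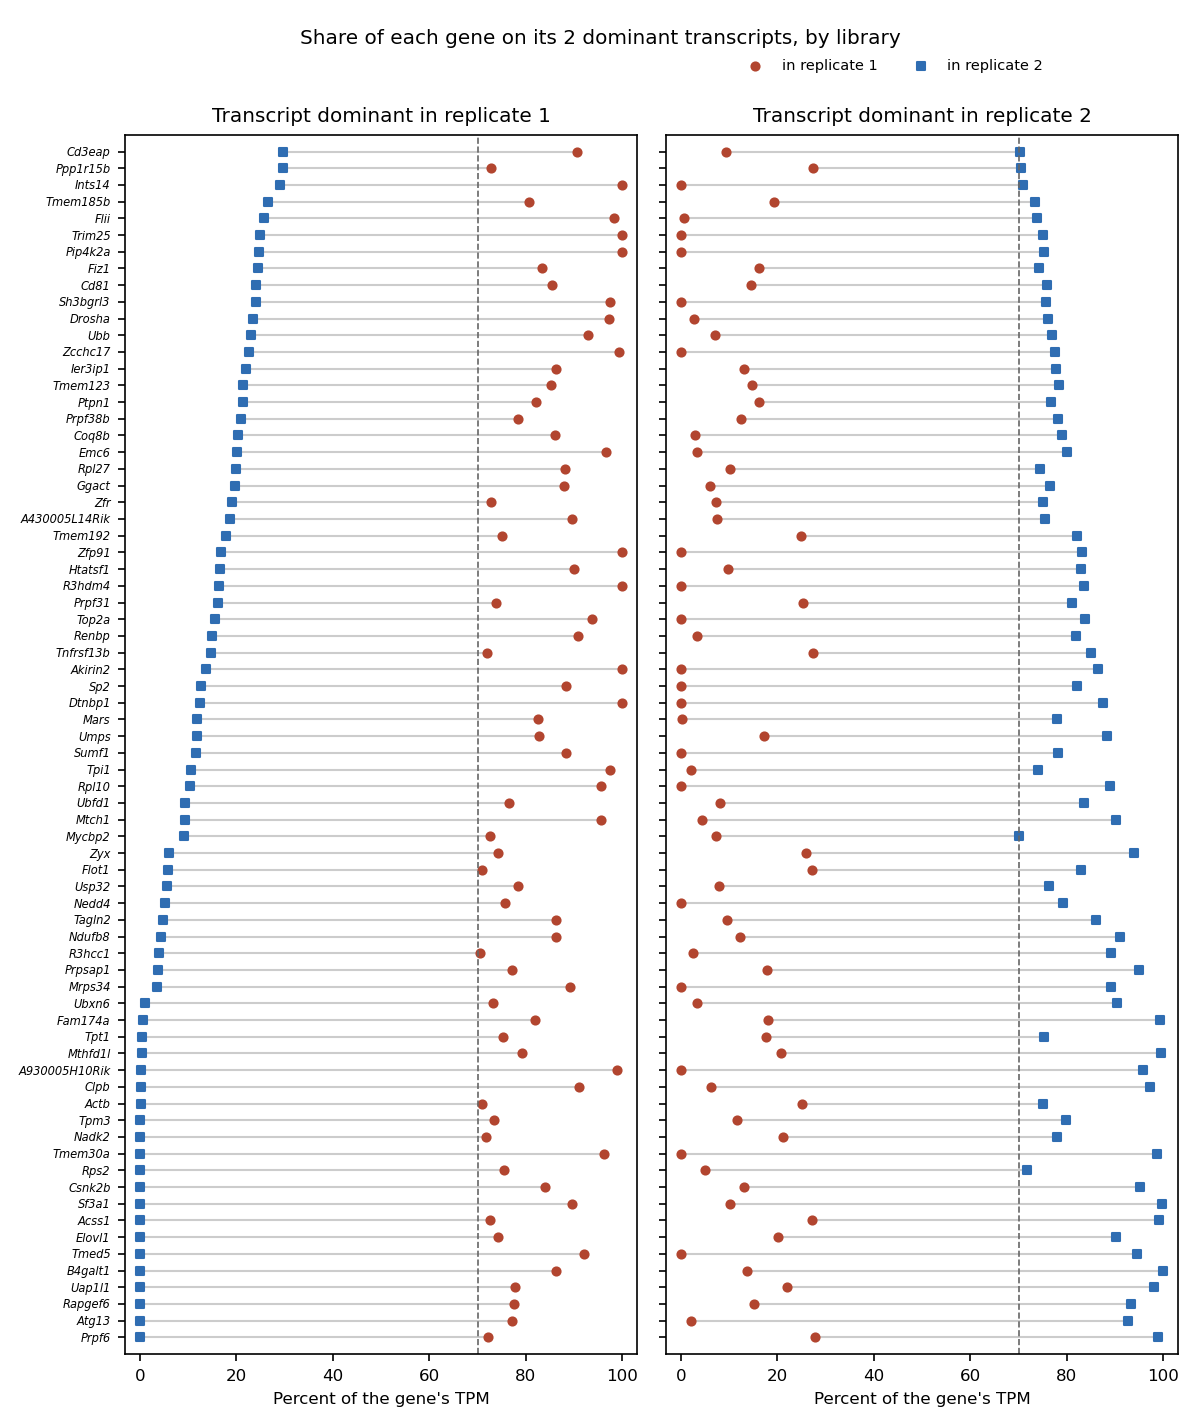
Percent of the gene's TPM held by the transcript dominant in replicate 1 (left) and by the transcript dominant in replicate 2 (right), for each of the 72 genes, in replicate 1 (circles) and replicate 2 (squares). The dashed line marks 70%, and genes are sorted by the replicate 2 share of replicate 1's transcript, which runs from 29.6% at the top to 0 at the bottom.

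The shares close to the threshold show how the genes next to it look. Just inside it, Mycbp2 had 72.6% on its dominant transcript in replicate 1 and 70.1% on another in replicate 2, Cd3eap had 90.6% and 70.4%, and Ppp1r15b had 72.7% and 70.4%. Just outside it, Retreg2 had 69.9% in replicate 1 and 71.5% in replicate 2, Ldha 75.1% and 69.8%, and Agfg2 78.6% and 69.7%. The leading transcript, at any percentage, differed between libraries in 722 eligible genes, or 25.1%, so the 72 genes are the strongest end of a wider set.

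The most complete switches were in Tmem30a and A930005H10Rik, the 2 genes with at least 95% on each dominant transcript. Tmem30a, which encodes the beta subunit of phospholipid flippases, had 96.3% of its TPM on Tmem30a-204 in replicate 1, against 0.06% in replicate 2. Tmem30a-203 was at 0% in replicate 1 and 98.6% in replicate 2. Both are annotated as retained introns, of 2662 and 1043 bases, and gene totals were 69.98 TPM in replicate 1 and 101.93 TPM in replicate 2. A930005H10Rik, an antisense RNA gene, had 98.8% on A930005H10Rik-206 in replicate 1 against 0.36% in replicate 2, while A930005H10Rik-205 was at 0% in replicate 1 and 95.7% in replicate 2. Whether the counting used strand is not given in the sources used here, so reads of an antisense gene and of its partner on the other strand may be mixed.

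The most abundant of the 72 genes was Rps2, a protein of the small ribosomal subunit (chromosome 17, 24718116 to 24721929). It averaged 4723 ± 1384 TPM (SD, n = 2), with 5702 TPM in replicate 1 and 3745 TPM in replicate 2. Rps2-204, annotated as a retained intron and 965 bases long, held 75.6% of this in replicate 1 and 0.01% in replicate 2. The coding Rps2-206, of 962 bases, held 5.07% in replicate 1 and 71.7% in replicate 2. The lengths are nearly equal, so shares of counts were much the same as shares of TPM, 75.2% for Rps2-204 in replicate 1 and 70.97% for Rps2-206 in replicate 2.

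Rpl10, of the large ribosomal subunit (chromosome X, 74270812 to 74273135), had 205.95 TPM in replicate 1 and 906.85 TPM in replicate 2. Rpl10-201 held 95.5% in replicate 1 and 10.5% in replicate 2, and Rpl10-211 held 0% in replicate 1 and 89.0% in replicate 2. Both are coding and share 644 bases, 99.4% of the shorter one, so few bases tell them apart. Rpl27, also of the large subunit (chromosome 11, 101442298 to 101445529), had 282.02 TPM in replicate 1 and 889.39 TPM in replicate 2. Its coding Rpl27-202 held 88.2% in replicate 1 and 19.99% in replicate 2, while Rpl27-204, a processed transcript with no annotated reading frame, held 10.1% in replicate 1 and 74.5% in replicate 2. Of 58 eligible ribosomal protein genes, 27 had a dominant transcript in both libraries and these 3 differed, or 11.1% of the 27, next to 5.57% over all such genes.

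Tpt1, the translationally controlled tumour protein (chromosome 14, 75845093 to 75848525), was second in level, with 3350.7 TPM in replicate 1 and 2100.59 TPM in replicate 2. Both of its dominant transcripts are annotated as retained introns. Tpt1-203, of 478 bases, held 75.3% in replicate 1 and 0.52% in replicate 2, and Tpt1-206, of 890 bases, held 17.6% in replicate 1 and 75.4% in replicate 2. They share 199 bases, 41.6% of the shorter one. Ubb, a polyubiquitin gene (chromosome 11, 62551171 to 62553213), had 196.14 TPM in replicate 1 and 2198.74 TPM in replicate 2. Ubb-201 held 92.8% in replicate 1 and 23.0% in replicate 2, and Ubb-202 held 7.20% in replicate 1 and 77.0% in replicate 2. None of the 28 eligible translation factor genes of the list used here was among the 72. Of these 28 genes, 14 had a dominant transcript in both libraries, and the share that differed over all such genes was 5.57%. Nothing is read from this absence in a list this short.

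Rps2, Rpl10, Rpl27, Tpt1, Ubb, Actb and Tpm3 had gene counts that were not whole (to within 0.005) in at least 1 library, which occurs when reads are divided between genes. These genes have processed pseudogene copies or close relatives in the genome, and their totals and isoform shares are uncertain to that extent. The same held for Mrps34, Tmem185b and Ints14, so that 10 of 72 genes (13.9%) had such a count, next to 13.4% of the eligible genes. Exons of the dominant transcripts overlapped exons of another gene in 19 of the 56 genes with a full structure, on the opposite strand in 16 and on the same strand in 5. This overlap was not counted over all eligible genes, so it is not read as a trait of the 72.

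Actb, cytoskeletal beta-actin (chromosome 5, 142903115 to 142906754), had 338.36 TPM in replicate 1 and 1047.71 TPM in replicate 2. The intron-retaining Actb-205 held 70.9% in replicate 1 and 0.27% in replicate 2, while the full coding Actb-201 held 25.1% in replicate 1 and 74.95% in replicate 2. In absolute terms Actb-205 reached 239.89 TPM in replicate 1, against 2.82 TPM in replicate 2. Actb-201 reached 84.85 TPM in replicate 1, against 785.31 TPM in replicate 2, so the 2 transcripts moved in opposite directions between the libraries. This was not so in every gene. In Ubb, Tpi1 and Tagln2 both dominant transcripts had the higher TPM in replicate 2.

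Tpm3, a tropomyosin of the actin filaments that also belongs to the red cell membrane skeleton (chromosome 3, 90072649 to 90100902), had nearly level totals, 248.26 TPM in replicate 1 and 202.53 TPM in replicate 2. The coding Tpm3-203 held 73.5% in replicate 1 and 0.16% in replicate 2, and Tpm3-212, annotated as a retained intron, held 11.7% in replicate 1 and 79.7% in replicate 2. Tpm3 has 17 transcripts, the most of the 72 genes. It was the only differing gene among the 5 erythroid membrane genes with a dominant transcript in both libraries (20%). With Actb it was 1 of 2 among 5 actin cytoskeleton genes (40%). The share over all such genes was 5.57%, and nothing is read from lists this short. Tagln2, an actin-binding protein (chromosome 1, 172500047 to 172507380), had 52.22 TPM in replicate 1 and 1258.11 TPM in replicate 2. Tagln2-202 held 86.2% in replicate 1 and 4.85% in replicate 2, and Tagln2-204, whose 369 bases lie wholly inside Tagln2-202, held 9.57% in replicate 1 and 86.1% in replicate 2.

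Tpi1, the glycolytic triosephosphate isomerase (chromosome 6, 124810586 to 124814296), had 56.56 TPM in replicate 1 and 1565.41 TPM in replicate 2. The coding Tpi1-205 held 97.3% in replicate 1 and 10.6% in replicate 2, and Tpi1-204, annotated as a retained intron, held 2.04% in replicate 1 and 73.9% in replicate 2. It was the only differing gene of 6 glycolytic genes with a dominant transcript in both libraries (16.7%), next to 5.57% over all such genes. Ndufb8, a subunit of respiratory complex I (chromosome 19, 44548572 to 44555440), had 781.49 TPM in replicate 1 and 383.42 TPM in replicate 2. Ndufb8-203, annotated as a retained intron, held 86.3% in replicate 1 and 4.46% in replicate 2, and the coding Ndufb8-201 held 12.2% in replicate 1 and 91.0% in replicate 2. Ndufb8 was the only differing gene among 26 genes of oxidative phosphorylation with a dominant transcript in both libraries (3.85%), a share near the 5.57% over all such genes.

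Of 48 eligible splicing factor genes, 25 had a dominant transcript in both libraries and 4 of these differed (16%), next to 5.57% over all such genes. The 4 were Sf3a1, Prpf38b, Prpf31 and Prpf6, and the count carries no test. Sf3a1, a subunit of the U2 particle that recognises the branch point, held 89.6% on the 424-base Sf3a1-202 in replicate 1 and 0% in replicate 2. The 4920-base coding Sf3a1-201 held 10.3% in replicate 1 and 99.8% in replicate 2. Prpf38b, a protein of the spliceosome, had 78.3% on Prpf38b-204, a target of nonsense-mediated decay by annotation, in replicate 1 against 20.9% in replicate 2. Its coding Prpf38b-201 held 12.4% in replicate 1 and 78.2% in replicate 2.

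Prpf31, a factor of the U4/U6.U5 tri-snRNP, had 73.7% on Prpf31-202 in replicate 1 against 16.3% in replicate 2, and 25.2% on Prpf31-201 in replicate 1 against 81.0% in replicate 2. The shorter Prpf31-202 shares 1797 of its 1798 bases with Prpf31-201. Drosha, the nuclear enzyme that cuts primary microRNAs, had 198.26 TPM in replicate 1 and 436.39 TPM in replicate 2. Its 4471-base coding Drosha-201 held 97.2% in replicate 1 and 23.5% in replicate 2, and the 699-base Drosha-206 held 2.73% in replicate 1 and 76.2% in replicate 2.

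Other lists held no such gene. None of the 12 core erythroid regulators, 3 globin, 3 heme and iron, 11 proteasome, 13 cell cycle, 18 chromatin and 11 chaperone genes with a dominant transcript in both libraries differed, next to 5.57% over all such genes, and nothing is read from counts of 0 in lists this short. Only 11 of the 72 genes stood in any of the lists and 61 stood in none. The 72 genes lay on 19 chromosomes, and their median level of 73.96 TPM was near that of genes with the same dominant transcript, 79.6 TPM.

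Shares of differing genes were taken among genes with a dominant transcript in both libraries, by number of annotated transcripts. They were 5.38% of 260 genes with 2 transcripts and 4.05% of 568 with 3 to 5. With 6 to 9 transcripts the share was 8.00% of 350 genes, and with 10 or more it was 6.09% of 115. As shares of all eligible genes the values were, in the same order, 4.09%, 2.34%, 2.89% and 1.19%. By mean level, again among genes with a dominant transcript in both, it was 5.53% of 380 genes between 20 and 50 TPM. The share was 7.57% of 383 between 50 and 100 TPM, 3.11% of 418 between 100 and 500 TPM and 8.04% of 112 at higher levels. Of all eligible genes the shares were 2.4%, 3.46%, 1.37% and 4.13%. None of these series of shares ran in 1 direction.

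The annotation of the paired transcripts was mixed. In 28 genes both dominant transcripts are protein coding in M21, as in Ubb, Rpl10 and Tagln2. In 14 genes replicate 1's transcript is coding and replicate 2's is not, as in Rpl27, Tpm3 and Tpi1. In 19 genes replicate 1's is not coding and replicate 2's is, as in Rps2, Actb and Ndufb8. Neither is coding in 9 genes, and replicate 2's transcript is not in M21 in 2 genes, Sp2 and R3hcc1. Retained introns made up 15 of replicate 1's dominant transcripts and 10 of replicate 2's, and 22 genes had one in at least 1 library. No share of retained introns over other genes stands beside these counts, so nothing is read from them. Coding transcripts made up 61.1% of the dominant transcripts in replicate 1 and 67.1% in replicate 2, next to 77.3% among genes with the same dominant transcript in both.

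The structures of both transcripts could be compared in 56 genes, whose transcripts have the same length in the deposited tables and in M21, and not in the other 16. The shorter transcript of a pair was mostly shared, but most of the bases of both transcripts together were not. A median of 84.2% of the shorter transcript's bases lay in the longer one, and in 16 genes the shorter transcript lay wholly inside the longer one. Of the bases of both transcripts together, a median of 30.7% was shared. The starts lay within 50 bases of each other in 33 genes and the ends in 8, and the median distance was 38.5 bases between starts and 1623 bases between ends. Earlier partings, with fewer than 30 bases of either transcript before them, were passed over. At the first point after that where a pair parted, replicate 1's transcript read on where replicate 2's spliced in 16 genes. The reverse held in 10, both spliced to different places in 21, and 9 had no such point.

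Pairs at both ends of this range differ in kind. Renbp, a sugar epimerase that binds renin, and Mycbp2, a ubiquitin ligase, had pairs with no base in common. In Mycbp2 the starts lay 155199 bases apart, and in Renbp 4344 bases apart. Fam174a shared 35.9% of the shorter transcript. At the other end, Mthfd1l, a mitochondrial enzyme of one-carbon metabolism, had 79.3% on Mthfd1l-201 in replicate 1 against 0.44% in replicate 2, and 20.7% on Mthfd1l-202 in replicate 1 against 99.6% in replicate 2. All 3535 bases of Mthfd1l-201 lie in Mthfd1l-202 and both have the same coding sequence. The pairs of Emc6 and Mrps34 also had the same coding sequence, but there the shorter transcript did not lie wholly in the longer one.

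Atg13, a factor that starts autophagy, had 77.1% on Atg13-201 in replicate 1 against 0% in replicate 2, and 2.15% on Atg13-202 in replicate 1 against 92.6% in replicate 2. These transcripts share 3493 bases, 98.4% of the shorter one. Umps, an enzyme of pyrimidine synthesis, had 82.7% on Umps-202 in replicate 1 against 11.8% in replicate 2, and 17.3% on Umps-201 in replicate 1 against 88.2% in replicate 2. All 3283 bases of Umps-202, annotated as a target of nonsense-mediated decay, lie inside Umps-201. For each transcript, 31-base words found in no other transcript of the same gene in M21 were counted, without regard to other genes. Their median share was 12.9% in replicate 1's dominant transcripts and 11.8% in replicate 2's. It was 14.9% in genes with the same dominant transcript, and 8.64% and 8.02% in the leading transcripts of all eligible genes in replicates 1 and 2.

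Length set many pairs apart. The dominant transcript was the longer of the pair in replicate 1 in 42 genes and in replicate 2 in 30. The median length was 1543 bases in replicate 1 and 1163 bases in replicate 2. For the leading transcripts of all eligible genes it ran the other way, 1268.5 bases in replicate 1 and 1391.5 bases in replicate 2. In genes with the same dominant transcript it was 1599 bases. In 30 genes the lengths were at least 2-fold apart and in 14 they were within 1.1-fold. The widest pairs with the longer transcript in replicate 1 were Flii (4060 and 458 bases), Zfr (4850 and 565), Nedd4 (5499 and 660) and Top2a (5221 and 632). The widest with the longer transcript in replicate 2 were Sf3a1 (424 and 4920 bases), Ptpn1 (466 and 4213), Tmem123 (508 and 2907) and Acss1 (658 and 3618).

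TPM divides fragments by length, so a few fragments on a short transcript can outweigh many on a long one. Shares of fragments were therefore set beside the shares of TPM. By expected counts, the leading transcript still differed between libraries in 58 of the 72 genes, next to 23.7% of eligible genes and 4.67% of those with the same dominant transcript. The rule for the 72 genes used the same tables, so nothing is read from these shares. In 29 of them each leading transcript also held at least 70% of the counts, and their median length ratio was 1.23. In 29 the leading transcripts differed but at least 1 held less, with a median length ratio of 1.75. In 14 the same transcript led by counts in both libraries, with a median ratio of 6.06. Among the 29 that differed by at least 70% on both measures were Rps2, Rpl10, Ndufb8, Tmem30a, A930005H10Rik, Mthfd1l, Atg13, Umps, Fam174a, Renbp, Htatsf1 and Prpf38b.

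**Figure D3:**
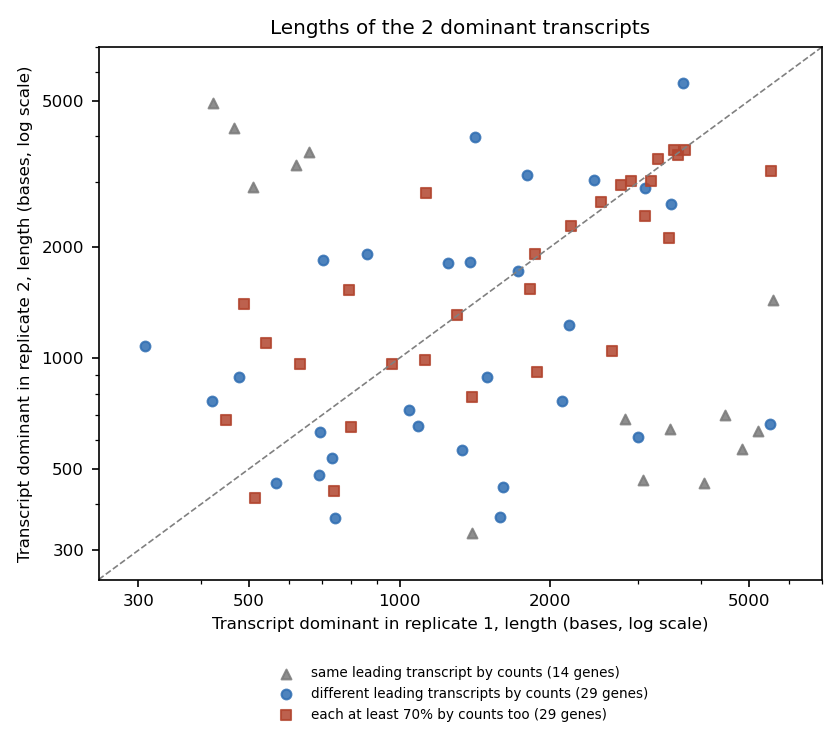
Length of the transcript dominant in replicate 1 (horizontal, bases, log scale) against that of the transcript dominant in replicate 2 (vertical, bases, log scale) in the 72 genes. Colours and shapes give the comparison by counts, and the dashed line marks equal lengths. The 14 genes with the same leading transcript by counts lie far from the line.

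The 14 genes with 1 leading transcript by counts included all of the widest pairs just named except Nedd4. In Sf3a1 the long Sf3a1-201 held 65.5% of the counts in replicate 1 and 99.97% in replicate 2, although it held 10.3% of the TPM in replicate 1. Flii, a gelsolin-family actin regulator, had 99.8% of its counts in replicate 1 and 81.5% in replicate 2 on Flii-201, while the 458-base Flii-203 took 73.8% of the TPM in replicate 2 from 18.3% of the counts. Top2a, the topoisomerase of dividing cells, had 98.2% of its counts in replicate 1 and 65.9% in replicate 2 on Top2a-201. Top2a-202 held no counts in replicate 1 and 2756 counts in replicate 2, where it made up 83.7% of the TPM. The counts on the short transcripts still differed between libraries in all 3 genes.

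Zfr, an RNA-binding zinc finger protein, had 96.9% of its counts in replicate 1 and 72.9% in replicate 2 on Zfr-201. Drosha-201 held 99.6% of the Drosha counts in replicate 1 and 70.6% in replicate 2. In the other direction, Ptpn1, the protein tyrosine phosphatase PTP1B, had 67.9% of its counts on Ptpn1-201 in replicate 1 and 96.3% in replicate 2, and Ptpn1-207 made up 82.1% of the TPM in replicate 1 from 27.7% of the counts. Acss1, a mitochondrial acetyl-CoA synthetase, had 71.4% of its counts on Acss1-201 in replicate 1 and 99.9% in replicate 2. Tmem123, a transmembrane protein, had 56.2% on Tmem123-201 in replicate 1 and 96.3% in replicate 2.

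The dominant transcripts held a median of 2466 counts in replicate 1 and 4039 counts in replicate 2. The authors' credible intervals for TPM did not overlap between the libraries for replicate 1's transcript in 70 of 72 genes, all but R3hcc1 and Ier3ip1, and for replicate 2's transcript in 69 of 72, all but R3hcc1, Nadk2 and Dtnbp1. Among all eligible genes the intervals of the leading transcript were apart in 88.4% for replicate 1's and 87.2% for replicate 2's, so separation of the intervals is common in these libraries. Intervals apart in either direction were counted, so separation need not go with the change of dominant transcript. In Ubb, Tpi1, Tagln2 and Flii, for example, replicate 1's transcript itself had the higher TPM in replicate 2. The intervals cover the division and counting of reads within a library and not the spread between cultures, and their level is not given in the sources used here. By the authors' posterior mean percentages, 67 of the 72 genes still had different dominant transcripts.

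The total level of these genes differed between libraries as well. Gene TPM was at least 2-fold apart in 29 of 72 genes (40.3%), next to 25.5% of eligible genes. Replicate 1 was the higher one in 11 of the 72 genes (15.3%), next to 16.5% of eligible genes, and replicate 2 in 18 of the 72 (25%), next to 8.99%. On expected counts scaled by TMM factors (a normalisation on library composition), 18 of 72 (25%) were at least 2-fold apart, next to 17.1% of eligible genes. By this measure replicate 1 was higher in 4 of the 72 (5.56%), next to 4.51% of eligible genes, and replicate 2 in 14 of the 72 (19.4%), next to 12.6%. The median log2 ratio of replicate 1 over replicate 2 over all eligible genes was 0.35 for TPM and 0.02 for scaled counts, and over the 72 genes it was 0.12 for TPM and -0.06 for scaled counts. The effective length of the gene, which the authors' tables average over its transcripts, was at least 2-fold apart in 28 of 72 genes (38.9%), next to 3.89% of eligible genes and 0.491% of those with the same dominant transcript. It was longer in replicate 1 in 18 of the 72 (25%), next to 1.35% of eligible genes, and longer in replicate 2 in 10 of the 72 (13.9%), next to 2.53%. Because the rule picks genes whose main transcript changes, a change in this average is partly built in.

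The widest gene level difference was in Tpi1, 27.7-fold higher in replicate 2 by TPM and 11.2-fold higher by scaled counts. Tagln2 was 24.1-fold higher in replicate 2 by TPM and 6.95-fold by scaled counts. Ubb was 11.2-fold higher in replicate 2 by TPM and 9.18-fold by scaled counts. For Nedd4, a ubiquitin ligase, TPM was 37.94 in replicate 1 and 324.17 in replicate 2, or 8.54-fold higher in replicate 2, against 2.12-fold by scaled counts. In Tpi1, Tagln2, Ubb and Nedd4 the shorter transcript was dominant in replicate 2, the library with the higher TPM.

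Genes higher in replicate 1 showed the mirror image. Tmem123 had 359.37 TPM in replicate 1 and 42.75 TPM in replicate 2, 8.41-fold higher in replicate 1, and 2.21-fold by scaled counts. B4galt1, a galactosyltransferase of the Golgi, had 92.32 TPM in replicate 1 and 22.06 TPM in replicate 2, 4.19-fold higher in replicate 1, and 1.45-fold by scaled counts. Its shorter B4galt1-202 held 86.3% in replicate 1 and 0% in replicate 2, and B4galt1-201 held 13.7% in replicate 1 and all of the TPM in replicate 2. Htatsf1, a splicing and elongation factor, was 3.31-fold higher in replicate 1 by TPM and 1.31-fold by scaled counts. Ptpn1 was 3.22-fold higher in replicate 1 by TPM, while its scaled count was 1.26-fold higher in replicate 2.

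The direction itself turned in some genes. TPM and scaled counts put different libraries higher in 22 of 72 genes (30.6%), next to 19.0% of eligible genes. Sf3a1 had 493.17 TPM in replicate 1 and 177.35 TPM in replicate 2, 2.78-fold higher in replicate 1, but 9184 counts in replicate 1 and 44235 counts in replicate 2, which was 2.80-fold higher in replicate 2 after scaling. Tpt1 was 1.595-fold higher in replicate 1 by TPM and 1.23-fold higher in replicate 2 by scaled counts. Drosha was 2.20-fold higher in replicate 2 by TPM and 1.09-fold higher in replicate 1 by scaled counts. Actb kept its direction, 3.10-fold higher in replicate 2 by TPM and 5.79-fold by scaled counts.

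The ratios were then split by transcript length. In the 42 genes whose longer transcript was dominant in replicate 1, the median log2 ratio of replicate 1 over replicate 2 was -0.37 for TPM and 0.06 for scaled counts. In the 30 genes whose longer transcript was dominant in replicate 2, it was 0.55 for TPM and -0.32 for scaled counts. TPM was higher in replicate 1 in 24 of these 30 genes and in 17 of the 42, next to 1937 of 2880 eligible genes. Over all eligible genes the median log2 ratio was 0.35 for TPM and 0.02 for scaled counts. Across the 72 genes, Pearson's r between the log2 length ratio and the log2 ratio was -0.67 for TPM and 0.02 for scaled counts. These points share both libraries, TPM contains the length by construction, and genes are not independent replicates.

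**Figure D4:**
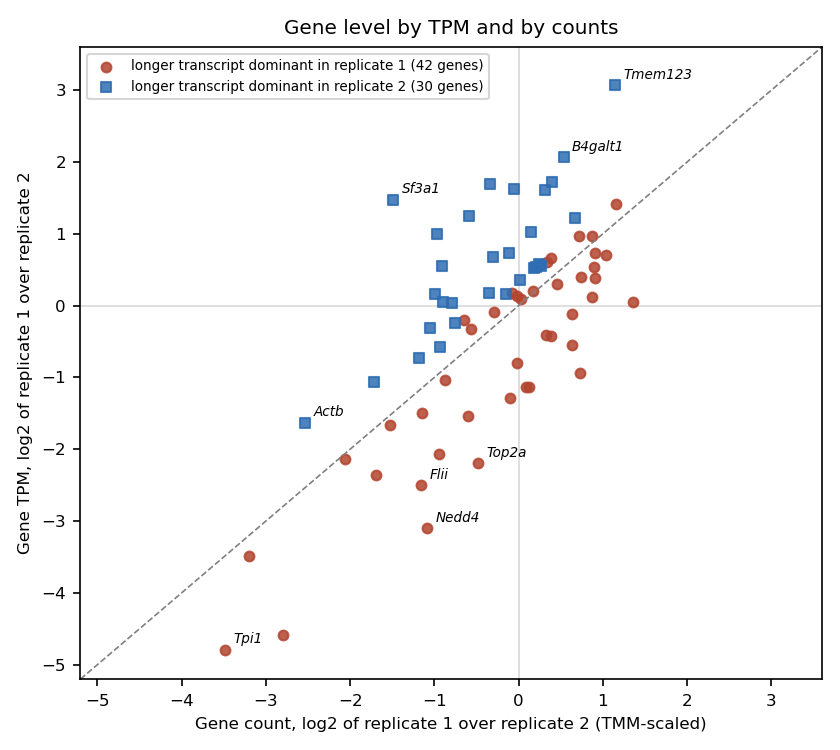
Log2 ratio of replicate 1 over replicate 2 of gene TPM (vertical) against that of TMM-scaled gene counts (horizontal) for the 72 genes. Circles are the 42 genes whose longer transcript was dominant in replicate 1, and squares the 30 genes whose longer transcript was dominant in replicate 2; the dashed line marks equal ratios. All 30 squares lie above the line and 30 of the 42 circles below it, with Sf3a1 at the upper left and Tpi1 at the lower end. The medians over all eligible genes, 0.35 for TPM and 0.02 for scaled counts, also fall above the line.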

How the data were processed

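RNA of G1E-ER4 cells after 3 h in 10 nM estradiol was measured in 2 libraries of 1 group. Per the readme deposited with the tables, each library was mapped to mm10 and quantified on GENCODE M4 separately. For aligner and quantifier, names and versions were not given in the sources used here. The deposited expected counts are estimated fragments per gene or transcript, not normalised, per the file headers. The deposited TPM and FPKM values correct for effective length and for library size. The deposited percent values give each transcript's part of its gene's TPM. The authors' posterior means and credible bounds of TPM, deposited as a signal per transcript, served as alternatives.

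The selection rule was applied to the deposited percent and TPM values, and it was tested on simulated data. Shares of counts were recomputed per gene. TMM factors came from edgeR 4.0.16 in R 4.3.3 on rounded expected counts of genes with a summed count of at least 20, with no test. Tables were handled with Python 3.11.15, pandas 2.3.3 and numpy 2.4.6. GENCODE M21 supplied names, types, positions and sequences on GRCm38, which is the same assembly as mm10. M4 was not used here, so models can differ. The 97 spike-in sequences had a count of 0 and were left out.

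Genes named were the 12 highest by mean TPM, those with at least 95% on both transcripts, the 4 widest length pairs and 4 widest TPM differences in each direction, the erythroid list members, the 3 highest of each list and 3 on each side of the threshold. Also named were the 4 pairs sharing the least sequence, as a share of the shorter transcript. The 4 pairs sharing the most were taken by the share of the bases of both transcripts together. Prpf6, Emc6, Mrps34, Sp2 and genes in other small counts were named after their values were seen. The genes and lists were chosen with earlier results of these data known. The closing section gives the values under 19 other settings.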

Additional observations from a re-analysis of the deposited data

How the results depend on the processing

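The number of genes with different dominant transcripts, 72 as reported, was 168 at a threshold of 60%, 22 at 80% and 5 at 90%. It was 36 with a gene TPM of at least 50, 13 at 100 and 535 with no filter on low values. It stayed within 1.5 times the reported number with a gene TPM of at least 10 (104), posterior mean percentages (67), transcripts with 1 coding sequence added together (68) and transcripts of at least 200 bases (72). With transcripts of 1 coding sequence added together, 66 of the 68 were among the 72. Emc6, Fiz1, Ints14, Mrps34, Mthfd1l and R3hdm4 were not kept under that setting. Percent of expected counts gave 49 genes, of which 29 were among the 72, and protein-coding transcripts only gave 72 genes, again with 29 in common. Mtch1 alone was kept under all 12 settings. The median gene level of 73.96 TPM was 66.855 to 68.445 TPM with 1 library left out. Of 29 genes at least 2-fold apart in gene level, TMM-scaled expected counts gave 18 (14 in common) and counts scaled by totals gave 19 (13 in common), while a pseudocount of 1 TPM, FPKM and posterior mean TPM each gave 29. Of the genes 2-fold apart, 37.9% were higher in replicate 1 by TPM, 22.2% by TMM-scaled counts and 34.5% by FPKM. The cause of these shifts was not tested. No paired analysis was possible because there was 1 group only.

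The dominant transcript with fewer counts held a median of 1768 counts, and a median of 84.2% of the shorter transcript was shared with the longer one. The part of depth and of the division of shared reads in these shares was not tested, and 1 library on each side gives no error for a difference.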
